A study of Rattus norvegicus with 12 samples.

Results

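Small-molecule methyltransferases are enzymes that move the methyl group of S-adenosylmethionine onto a small acceptor. The group described here comprised Inmt, Nnmt, Hnmt, Gnmt, Gamt, Pemt and Tpmt. Its members were the microarray probes whose RefSeq accession belongs to one of these 7 genes, and there were 8 such probes among 45598, for 6 of 16667 named genes. Pemt had 3 probes, and Inmt, Nnmt, Gnmt, Gamt and Hnmt had 1 each. No probe was matched to Tpmt, the thiopurine methyltransferase, so it is not described further. The genes had been proposed with the diet difference of these arrays in view. Their diet differences are therefore given as a description, and whether a member passed the threshold of the fit across all genes is not read as a test of it.

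The arrays measured total liver RNA of adult male Wistar rats, an outbred laboratory strain, at 1 rat per array. The low protein group was 6 rats fed a 5% casein diet for 4 weeks, and the control group was 6 rats fed a 14% casein diet for the same 4 weeks. Casein is the milk protein that served as the protein source, and the low casein diet held the same energy as the control diet. The labels give neither the rats' age nor a genetic change, and nothing in them says that RNA was pooled.

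S-adenosylmethionine is made from methionine, an essential amino acid that enters the liver with dietary protein. Each methyl transfer leaves S-adenosylhomocysteine, which inhibits many of the enzymes that produce it and is split to homocysteine and adenosine. In the liver, Gnmt uses glycine as the acceptor and forms sarcosine, Gamt turns guanidinoacetate into creatine, and Pemt makes phosphatidylcholine from phosphatidylethanolamine. Nnmt methylates nicotinamide, Hnmt methylates histamine, and Inmt methylates tryptamine and other amines and thioethers.

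Levels are log2 of the processed probe signal less the 75th percentile of its array, so a level of 0 is the brightness of that percentile. That percentile lay between 942 and 1317 intensity units over the 12 arrays, and 61.2% to 69.9% of spots were well above background. All pairs of arrays correlated at r between 0.981 and 0.992 over the genes tested. A probe was tested where it was well above background on at least 5 of the 6 arrays of a diet. Each gene was represented by its brightest probe, and limma was fitted to all 21874 genes. The slides coincide with the scans. Slide 1 held low protein rats 1 to 4 and control rats 1, 3, 5 and 6, and slide 2 held low protein rats 5 and 6 and control rats 2 and 4.

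The promoter of Inmt is shown because Inmt had the largest diet difference of the members. In RefSeq on the GRCr8 assembly it lies at chr4:85652706-85653005 on the minus strand, from 250 bases before to 50 bases after the annotated start of transcription. The capitals mark a TATA box sequence, TATAAA, which begins 21 bases before that start.
Inmt: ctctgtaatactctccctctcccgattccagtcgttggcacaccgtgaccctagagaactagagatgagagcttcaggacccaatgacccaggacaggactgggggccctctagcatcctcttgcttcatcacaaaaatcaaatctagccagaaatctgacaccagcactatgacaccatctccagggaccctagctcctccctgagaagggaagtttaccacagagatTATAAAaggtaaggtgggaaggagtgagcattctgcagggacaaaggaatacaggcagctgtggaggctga
Both strands were searched for TATAAA, and 4760 of 33469 promoters of this length in the rat table held it (14.2%). Among the members, Inmt, Hnmt, Gamt, Gnmt, Pemt and Tpmt had a promoter in the table, and the 1 match was that of Inmt. The motif TGATGNAAN, the consensus of the C/EBP-ATF response element, was in 1328 of the 33469 promoters (3.97%) and in 0 of these 6. The arrays were designed on another build, and the position of a probe relative to these promoters was not determined.

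Inmt had the largest diet difference of the group. Its level was -6.28 in the lowest low protein rat, -3.92 at the median and -2.75 in the highest, against -0.72 in the lowest control rat, 0.03 at the median and 0.28 in the highest. Every low protein rat was below every control rat. The mean level was -4.11 ± 1.42 in low protein livers and -0.08 ± 0.35 in control livers (SD, n = 6 each). The difference was -4.03 ± 0.54 (log2, SE), with a 95% interval of -5.20 to -2.87, which is a level 16.4-fold lower in low protein livers. Inmt ranked 6 among the falls of the 21874 genes.

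The low protein rats did not have 1 common Inmt level. Rats 6, 1 and 4 lay 6.37-fold, 6.68-fold and 8.75-fold below the control mean. Rats 2, 5 and 3 lay 23.4-fold, 30.1-fold and 73.7-fold below it. The SD of Inmt among low protein rats was exceeded by 0.384% of genes, whereas its SD among control rats was exceeded by 20.6% of genes. Before scaling, the processed intensity of the probe was 14.3 to 195.7 units in low protein livers and 598 to 1177 units in control livers. The spot was well above background on all 12 arrays. Its raw median intensity was 37 in low protein rat 3, and the raw median intensity of the Hnmt spot, which was at background, was 20 to 25 on the same set of arrays. The size of the difference depended on how background was removed, and it was -3.14 with normexp correction at an offset of 50 and -3.55 on the deposited unsubtracted values.

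Nnmt, which uses nicotinamide as its acceptor and so withdraws it from NAD recycling, was lower in most low protein rats. Its level was 2.06, 2.72 and 3.19 in the lowest, median and highest low protein rat, against 2.86, 3.24 and 3.91 in the control rats. Of the 6 low protein rats, 5 were below every control rat, and low protein rat 6 lay within the control range. The mean was 2.69 ± 0.37 in low protein livers and 3.29 ± 0.39 in control livers (SD, n = 6 each). The difference was -0.60 ± 0.20 (SE; 95% interval -1.04 to -0.16), or 1.52-fold lower.

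The slides differed in what they showed for Nnmt. On slide 1 the 4 low protein rats averaged 2.59 ± 0.36 and the 4 control rats 3.48 ± 0.34 (SD), with no overlap. On slide 2 the 2 low protein rats averaged 2.89 and the 2 control rats 2.92, and they overlapped. The interaction of diet with slide was not tested, so the values of slide 2 are given only beside those of slide 1. Inmt was without overlap on both slides, at -4.16 on slide 1 and -3.78 on slide 2.

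The probe of Hnmt, which inactivates histamine by methylation, was well above background on 0 of 12 arrays and was not tested. Its level was -9.80 to -8.67 in low protein livers and -9.67 to -9.37 in control livers, where values have no order.

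**Figure D1:**
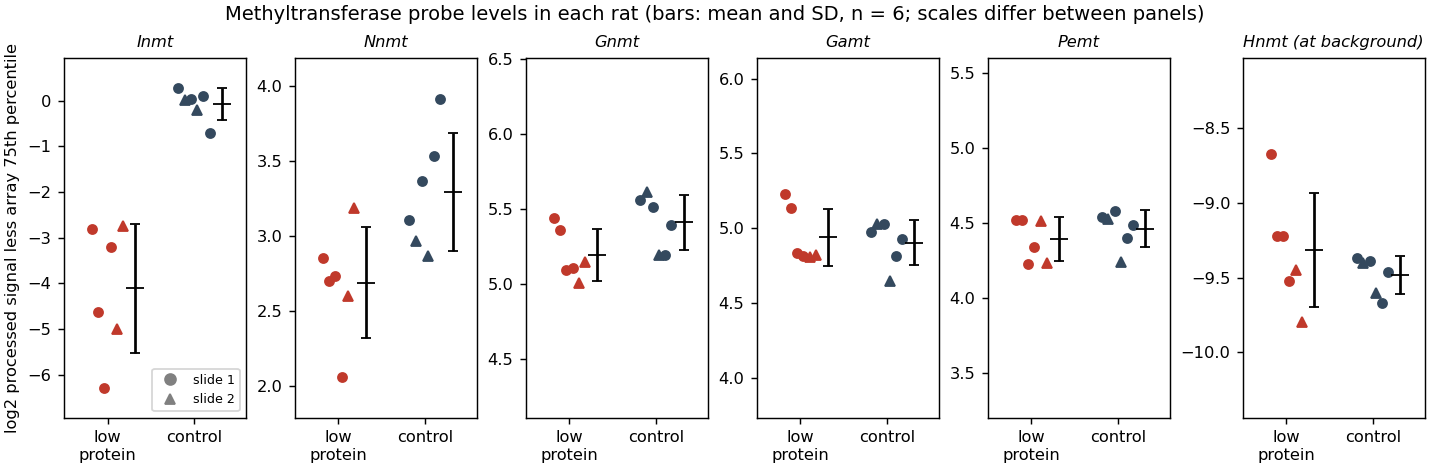
Level of each methyltransferase probe (y axis, log2 of the processed signal less the array's 75th percentile) in 6 low protein rats (left, red) and 6 control rats (right, dark blue), with circles for slide 1, triangles for slide 2, and bars for the mean and SD; Pemt is shown by its brightest probe, and scales differ between panels. The low protein rats lie between -6.28 and -2.75 for Inmt, below all control rats, whereas the diets overlap for Gnmt, Gamt and Pemt and by 1 rat for Nnmt.

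The 3 liver enzymes with glycine, guanidinoacetate and phospholipid as acceptors differed less between the diets. Gnmt, which also buffers the ratio of S-adenosylmethionine to S-adenosylhomocysteine, was at 5.00, 5.13 and 5.44 in the lowest, median and highest low protein rat, against 5.19, 5.45 and 5.61 in the control rats. Low protein rats 3, 4, 5 and 6 were below every control rat, and low protein rats 1 and 2 lay within the control range. The mean of Gnmt was 5.19 ± 0.17 in low protein livers and 5.41 ± 0.18 in control livers (SD, n = 6 each). The difference was -0.22 ± 0.10 (SE), with an interval of -0.44 to 0.01.

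Gamt, the last enzyme of creatine synthesis, was at 4.81, 4.83 and 5.23 in the lowest, median and highest low protein rat, against 4.65, 4.95 and 5.03 in the control rats. Low protein rats 1 and 2 were above every control rat, and the other 4 lay within the control range. The difference was 0.04 ± 0.10 (SE) with an interval of -0.18 to 0.25. Its sign turned to -0.05 after quantile normalization.

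Pemt was read by 3 probes, all of which were well above background on all 12 arrays. Its brightest probe was at 4.23, 4.43 and 4.52 in the lowest, median and highest low protein rat, against 4.24, 4.51 and 4.58 in the control rats. The difference was -0.07 ± 0.09 (SE; interval -0.26 to 0.12), and the other probes gave -0.09 ± 0.09 and -0.09 ± 0.10. The diets overlapped on each probe. Without scaling between arrays the sign of the brightest probe turned to 0.06, a setting under which the median difference of all genes was 0.11, against -0.03 with scaling.

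Of the 5 members in the fit, Inmt lay past the threshold of an adjusted p of 0.05, and Nnmt, Gnmt, Gamt and Pemt did not. This count changed with the setting: Gnmt also passed after quantile normalization (-0.30), Nnmt also passed with the rat number as a block (-0.60), and Inmt did not pass with slide 2 alone (-3.78). Of all 21874 genes 1429 were called (6.53%), 761 of them higher (3.48%) and 668 lower (3.05%). Groups without overlap were found for Inmt alone among the members and for 1090 of all genes (4.98%). Since the members were chosen on this contrast, nothing is read from their count.

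**Figure D2:**
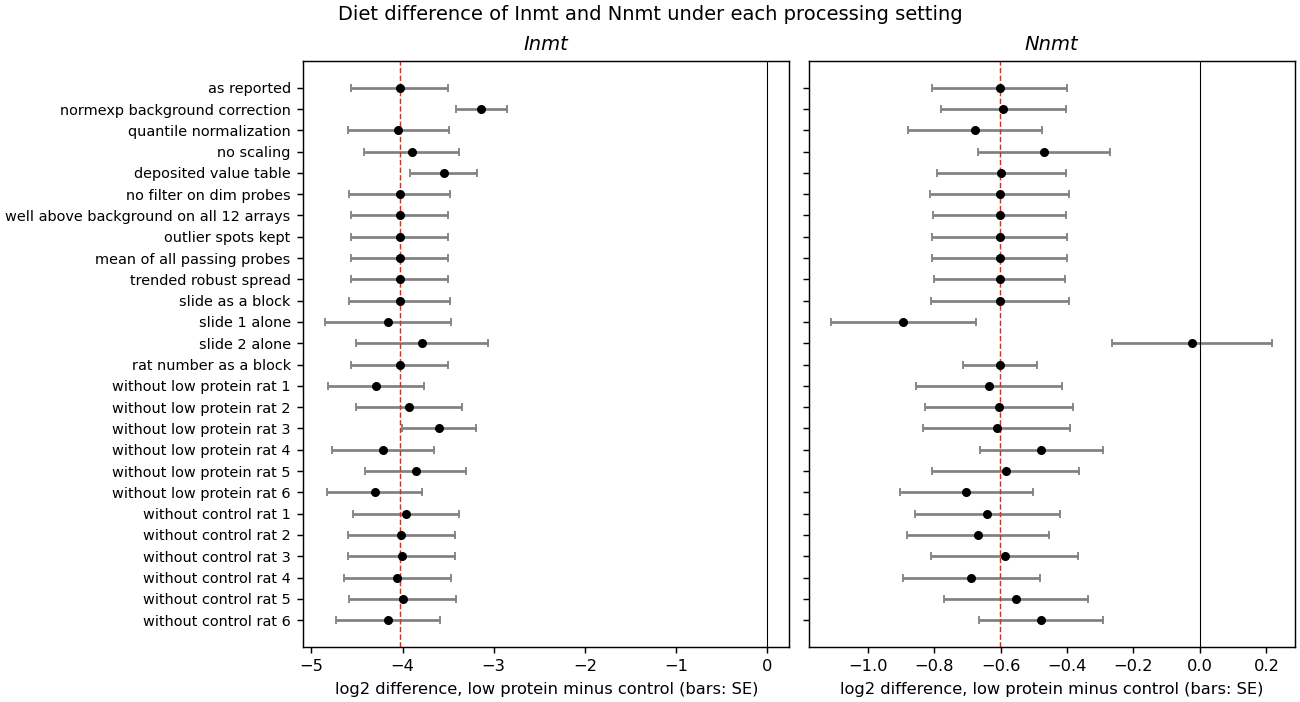
Diet difference of Inmt (left) and Nnmt (right) on the x axis (log2, low protein minus control, bars for the SE) under each processing setting, with the reported value as a dashed line and 0 as a solid line. Inmt stays between -4.31 and -3.14 in the settings shown, and Nnmt moves to -0.89 with slide 1 alone and -0.02 with slide 2 alone.

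The genes that supply S-adenosylmethionine and remove its product were set beside the members. Of 17 genes of the methionine and S-adenosylmethionine cycle, 15 were tested. Of these 1 rose and 1 fell, against 3.48% and 3.05% of all 21874 genes. Mtr, methionine synthase, was at -3.92 ± 0.22 in low protein livers and -4.56 ± 0.26 in control livers (SD), a rise of 0.64 ± 0.13 (SE; limma adjusted p = 0.0157) with no overlap. Bhmt2, which methylates homocysteine from S-methylmethionine, was at 2.90 ± 0.24 in low protein livers and 3.33 ± 0.10 in control livers, and it fell by 0.42 on the log2 scale (SE 0.11, adjusted p = 0.0344), a call that held in 13 of 26 settings, the reported one included. Mat1a, the liver enzyme that makes S-adenosylmethionine, differed by -0.04 ± 0.09, and Ahcy, which splits S-adenosylhomocysteine, by -0.13 ± 0.11, and neither passed the test (adjusted p = 0.858 and 0.585). The median difference of the list was -0.04, and that of all genes was -0.03.

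Of all 21874 genes, limma called 6.53% at an adjusted p of 0.05, and 4722 had an unadjusted p under 0.05. Among the 10 tested genes of other small-molecule methyltransferases reported here, it called 0, and 1 had an unadjusted p under 0.05. That gene was As3mt, which methylates arsenic, at 1.16 ± 0.10 in low protein livers and 0.93 ± 0.12 in control livers (SD, n = 6 each). It differed by 0.22 ± 0.08 (SE; adjusted p = 0.110). Mettl7a, next by p, differed by -0.21 ± 0.13 (adjusted p = 0.407). The median difference of these genes was 0.05.

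Genes that feed the members or handle their products were counted by member, and 4 of 39 tested genes were called, 2 in each direction. Of all 21874 genes 6.53% were called. Among the 7 around glycine and Gnmt, the mitochondrial serine hydroxymethyltransferase Shmt2 rose by 0.49 ± 0.12 (adjusted p = 0.0344), and Gcsh, the carrier protein of the glycine cleavage system, fell by 0.28 on the log2 scale (SE 0.07, adjusted p = 0.0397). Among the 5 purine genes upstream of thiopurine substrates, Impdh2, an inosine monophosphate dehydrogenase, rose by 0.41 ± 0.07 (adjusted p = 0.00672) with no overlap. Among the 3 histidine and histamine genes, Hal, histidine ammonia-lyase, fell by 0.50 on the log2 scale (SE 0.12, adjusted p = 0.0254). Hdc, which makes histamine, differed by 1.40 ± 0.39 and did not pass (adjusted p = 0.0513). The calls of Shmt2, Gcsh and Hal held in 15, 11 and 17 of 26 settings, the reported one included, and that of Impdh2 in 24.

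Around the members with the larger differences, 0 of 3 tested amine and tryptophan genes beside Inmt and 0 of 8 nicotinamide and NAD genes beside Nnmt were called by limma. Of these, 1 and 3 had an unadjusted p under 0.05, as did 4722 of all 21874 genes. The tryptophan oxygenase Tdo2 differed by -0.54 ± 0.18 (adjusted p = 0.103). The amine-forming decarboxylase Ddc differed by -0.13 ± 0.09 and the amine oxidase Maoa by 0.00 ± 0.06. Nampt, which recycles nicotinamide to NAD, differed by 0.58 ± 0.21 (adjusted p = 0.125). Aox3, an aldehyde oxidase, differed by -0.57 ± 0.17 (adjusted p = 0.0626). Of 6 creatine genes beside Gamt and 7 phospholipid genes beside Pemt, 0 were called, and each set had 1 at an unadjusted p under 0.05. Gatm, which makes guanidinoacetate, differed by 0.12 ± 0.19 (adjusted p = 0.782).

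Enzymes that methylate protein, RNA or DNA draw on the same donor. Of 36 tested, 5 rose and 0 fell, against 3.48% and 3.05% of all 21874 genes. Nsun2, a cytosine methyltransferase of transfer RNA, rose by 0.39 ± 0.07 (adjusted p = 0.00711). The protein arginine methyltransferases Prmt3 and Prmt1 rose by 0.87 ± 0.17 (adjusted p = 0.00951) and 0.30 ± 0.06 (adjusted p = 0.0163). Trmt61a, the catalytic subunit of an adenosine methyltransferase of transfer RNA, was at 0.17 ± 0.45 in low protein livers and -0.98 ± 0.39 in control livers (SD), a rise of 1.15 ± 0.22 (adjusted p = 0.00975). Fbl, fibrillarin, which methylates ribosomal RNA, was the fifth, at 0.31 ± 0.08 (adjusted p = 0.0332), and is named after its value was seen. For Nsun2, Prmt3, Prmt1 and Trmt61a no low protein rat was within the control range. The median difference of the list was 0.05. With the arrays of either slide alone, 0 genes of the 4 lists were called.

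**Figure D3:**
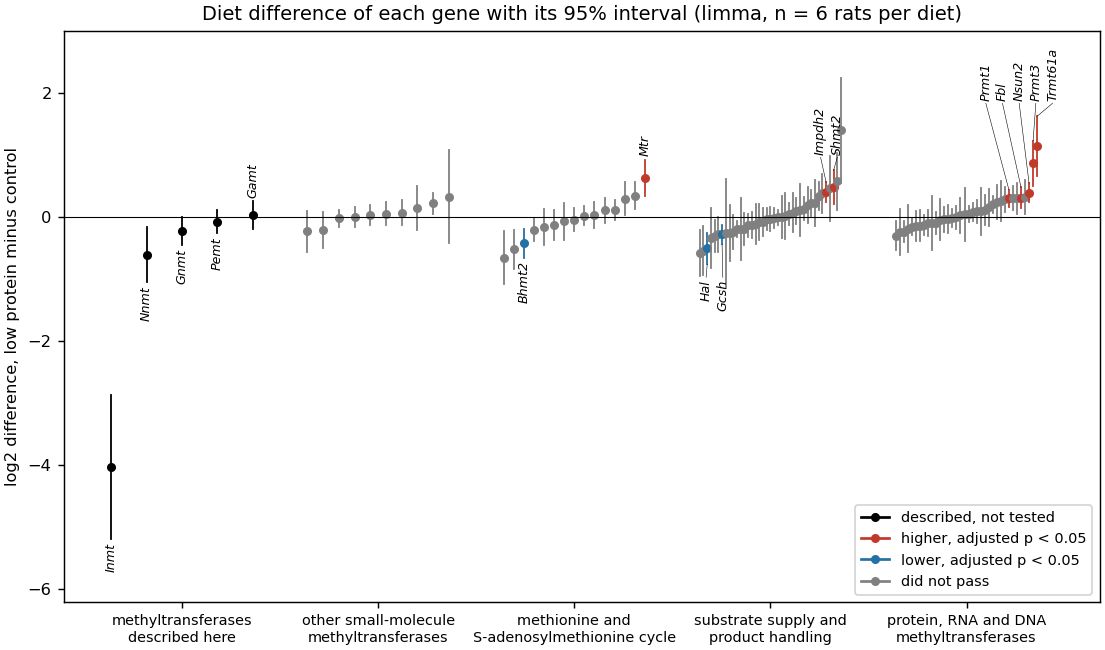
Diet difference of each gene (y axis, log2, low protein minus control) with its 95% interval from limma, for the 5 methyltransferases described (black) and for 4 lists of related genes, with genes that rose in red, genes that fell in blue and genes that did not pass in grey. Inmt at -4.03 lies below every gene of the 4 lists, and the 5 calls among protein, RNA and DNA methyltransferases are all rises.

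The livers held hepatocyte RNA on both diets. The summed linear level of 6 hepatocyte markers was 600 to 782 in low protein livers and 702 to 820 in control livers, in units of the array's 75th percentile. Of these, Apoa1 fell. In bulk tissue fewer cells of a type and less RNA per cell cannot be told apart. Of 8 tested markers of hepatocytes near the portal vein, 5 fell (Sds, Gls2, Cps1, Ass1 and Hal), against 3.05% of all genes. The others did not pass, with Hsd17b13 at 0.30 ± 0.09 (SE; limma adjusted p = 0.0850), Pck1 at -0.81 ± 0.28 and Cdh1 at -0.61 ± 0.23. The summed level of the 8 was 76.5 to 96.6 in low protein livers and 110 to 169 in control livers. Of 8 markers of hepatocytes near the central vein, Oat fell, at -2.18 ± 0.26 (SE). The others did not pass. Tbx3 was at 0.66 ± 0.42, Rhbg at 0.56 ± 0.19, Glul at 0.31 ± 0.18 and Cyp2e1 at 0.08 ± 0.13. Cyp1a2 was at -0.42 ± 0.21, Slc1a2 at -0.21 ± 0.31 and Axin2 at -0.08 ± 0.18. The median difference of the 8 was 0.00. Their summed level was 58.5 to 96.5 in low protein livers and 76.1 to 112 in control livers. Cyp2e1 was the brightest of them, at a mean of 6.01 in low protein livers and 5.93 in control livers. Hal belongs to the portal list and to the histamine list above. The Kupffer cell markers, 0 of 5 called, summed to 12.5 to 18.5 in low protein livers and 12.4 to 26.0 in control livers. Clec4f was the brightest of them, at a mean of 3.63 in low protein livers and 3.92 in control livers. All 5 were lower in low protein livers, with differences of -0.72 to -0.24. Of the 5, 3 had an unadjusted p under 0.05 in limma, as did 4722 of all 21874 genes. In the lists of cholangiocytes, stellate cells, sinusoidal endothelium, red cells, lymphocytes, pancreas and lung 0 markers were called. Of the pancreas list, Prss1 and Cpa1 were well above background on 0 arrays. Cela1 of that list was tested, at a mean of 0.65 in low protein livers and 0.71 in control livers. Of the lung list, Sftpb was well above background on 0 arrays and Sftpc on 1. Scgb1a1 of that list was tested, at -5.23 in low protein livers and -5.06 in control livers. The part of these markers in the member differences was not tested.

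The variation between rats of 1 diet had not been used to choose the members. Likeness was Pearson's r of the levels less their diet mean over 12 arrays, among 11197 named genes. Those most like Inmt were Stard3nl (0.93), Glul (0.89), Snx10 (0.88), Hprt1 (0.88) and Gss (0.87). In the same order, r was 0.94, 0.97, 0.90, 0.90 and 0.94 within low protein rats. Within control rats it was 0.77, 0.64, 0.46, 0.83 and 0.39. Genes picked as the highest of 11197 are a description and no test. Glul is glutamine synthetase, a marker of hepatocytes at the central vein. The diet differences of these genes were unlike that of Inmt. Snx10, a sorting nexin, rose by 1.40 ± 0.26 (adjusted p = 0.00771) and Gss, glutathione synthetase, rose by 0.71 ± 0.18 (adjusted p = 0.0384), while Inmt was lower. Glul itself differed by 0.31 ± 0.18 (adjusted p = 0.355). Those most like Nnmt were Ppif (0.92), Nsd3 (0.91), Ubac1 (0.90), Dcun1d2 (0.88) and Klhl25 (0.88), and their diet differences lay between -0.34 and 0.20, with none called.

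Because Glul was among the genes most like Inmt, the portal and central vein markers were set against Inmt and Nnmt within each diet, a comparison chosen after that value was seen. Within the low protein diet, Inmt correlated at r above 0.8 with 6 of 8 central vein markers, and with 5 of the 7 other than Glul. The share of all genes above 0.8 with Inmt in these rats was not determined, so the counts are a description. Low protein rat 3 had the lowest Inmt and the lowest Glul (0.66) and Slc1a2 (-4.75), and low protein rats 1, 4 and 6, with the highest Inmt, had Glul between 1.64 and 1.68. The r was 0.99 for Slc1a2, a glutamate transporter (exact permutation p = 0.00278; rho 0.94, p = 0.0167). It was 0.97 for Glul (rho 0.83), which is a description, since Glul had been picked by its likeness over these rats. Slc1a2, like Glul, was lowest in low protein rat 3 and highest in low protein rats 1, 4 and 6. Its permutation p is therefore not free of that choice. The r was 0.92 for Rhbg, 0.89 for Cyp2e1, 0.87 for Oat and 0.84 for Cyp1a2, and 0.02 for Tbx3 and -0.64 for Axin2. Without the 2 rats farthest from the Inmt median, r was 0.99 for Slc1a2, Glul and Oat, but 0.78 for Cyp2e1, 0.77 for Rhbg and 0.58 for Cyp1a2, which dropped below 0.8. Within the control diet, r above 0.8 was reached by 0 of the 8, with a median of 0.03, against 0.88 in the low protein diet. With the 8 portal markers the median r of Inmt was -0.12 in low protein rats and -0.49 in control rats. None was above 0.8 in either diet. In control rats Sds was at -0.82 (exact permutation p = 0.0667) and Gls2 at -0.82 (exact permutation p = 0.0556). Without the 2 farthest rats these were 0.51 and 0.45, so they rested on those rats. The difference between the diets in these correlations was not tested, and among control rats Inmt spanned only -0.72 to 0.28.

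Nnmt was set against the same markers, again without the share of all genes above 0.8, so its counts are a description too. Within the control diet its r was above 0.8 with 4 of 8 portal vein markers, at 0.92 for the serine dehydratase Sds (exact permutation p = 0.0139; rho 0.77, p = 0.103), 0.88 for Hsd17b13, 0.86 for the glutaminase Gls2 and 0.82 for Cps1. Control rat 6 had the highest Nnmt, Sds (4.10) and Gls2 (5.14). Within the low protein diet the r with Gls2 was 0.88 (exact permutation p = 0.00139; rho 1, p = 0.00278) and 0.94 without the 2 rats farthest from the Nnmt median, and that with Sds was 0.79 but -0.01 without the 2 farthest rats, so it rested on those rats. Single markers also ran the other way, at -0.92 for the central vein marker Glul in control rats (exact permutation p = 0.00972; rho -0.83, p = 0.0583) and at -0.87 for the portal marker Cdh1 in low protein rats (exact permutation p = 0.0389; rho -0.60, p = 0.242). Without the 2 farthest rats these were -0.79 for Glul and 0.40 for Cdh1, so the value of Cdh1 rested on those rats. The median over the 8 portal markers was 0.42 in the low protein diet and 0.66 in the control diet, and over the central vein markers it was 0.19 in the low protein diet and -0.32 in the control diet. Without scaling between arrays, 1 of the 8 portal markers and not 4 passed r of 0.8 in the control diet.

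None of these 64 correlations passed Benjamini-Hochberg adjustment, and the smallest adjusted p was 0.0889. Without scaling between arrays 2 passed, Inmt with Slc1a2 in low protein rats and Nnmt with Sds in control rats (adjusted p = 0.0444 each). A slide holds 4 and 2 rats of a diet, too few to give r within slides.

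**Figure D4:**
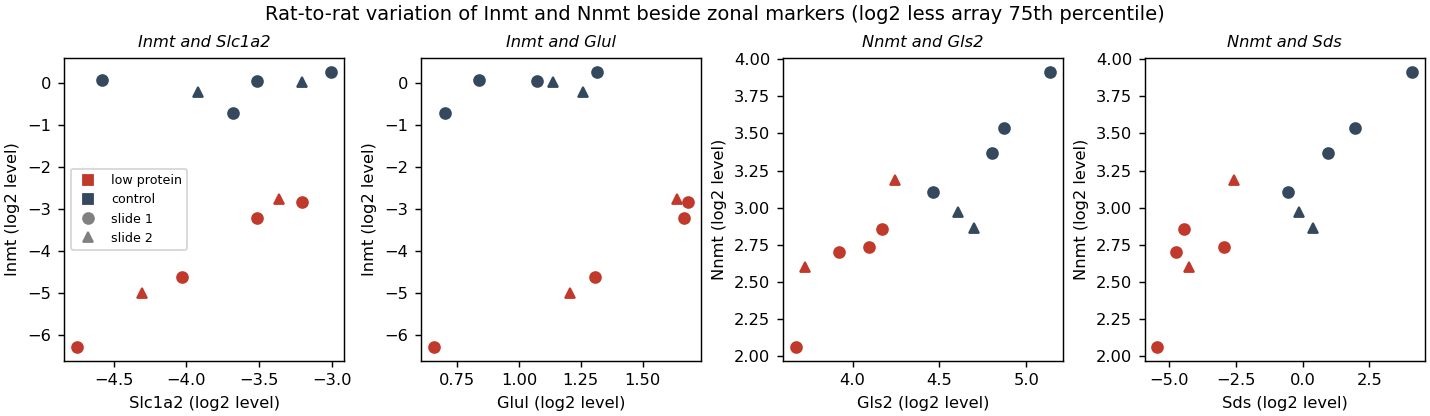
Level of Inmt against Slc1a2 and Glul, and of Nnmt against Gls2 and Sds (all axes log2 of the processed signal less the array's 75th percentile), with 1 point per rat, red for low protein, dark blue for control, circles for slide 1 and triangles for slide 2. In low protein rats Inmt lies higher where Slc1a2 and Glul are higher, and control rats keep Inmt between -0.72 and 0.28 while their Glul spans 0.70 to 1.32, against 0.66 to 1.68 in low protein rats.

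**Figure D5:**
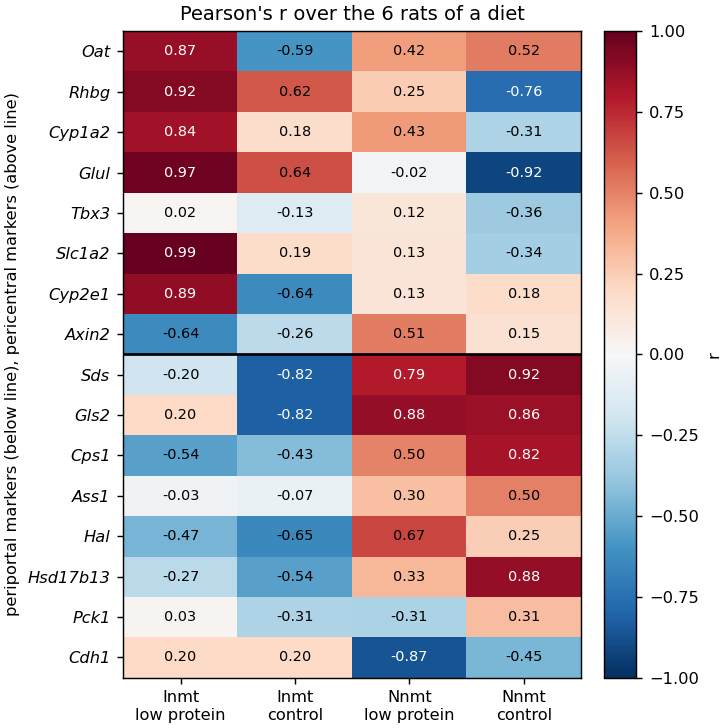
Pearson's r over the 6 rats of a diet between Inmt or Nnmt (columns, low protein left of control) and 8 central vein markers (upper rows) and 8 portal vein markers (lower rows), with red above 0 and blue below 0. The Inmt column of low protein rats holds 6 values above 0.8 among the central vein markers, and the Nnmt column of control rats holds 4 among the portal vein markers.

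Among themselves the members formed no pair that passed adjustment over 20 comparisons within diets. The highest were Gnmt with Gamt, at r of 0.97 in low protein rats (exact permutation p = 0.00972, adjusted p = 0.0648; rho 0.83, p = 0.0583) and 0.90 in control rats (exact permutation p = 0.00833, adjusted p = 0.0648; rho 0.89, p = 0.0333), and Gamt with Pemt in control rats, at 0.98 (exact permutation p = 0.00556, adjusted p = 0.0648; rho 0.83, p = 0.0583). In low protein rats r of Gnmt with Gamt was 0.38 without the 2 rats farthest from the Gnmt median, so it rested on those rats. In control rats the pairs were at 0.79 and 0.73 without the 2 farthest rats. These values changed with the normalization. After quantile normalization Gnmt with Gamt was at 0.81 in low protein rats and -0.92 in control rats without the 2 farthest rats. Gamt with Pemt in control rats was then at 0.70. The levels of these bright probes were also set against the array's 75th percentile, which had been subtracted from them. The r was -0.81 in low protein rats and -0.89 in control rats for Gamt, -0.73 and -0.74 for Gnmt, and -0.45 and -0.94 for Pemt. None passed adjustment (exact permutation, smallest adjusted p = 0.139). Without the 2 rats farthest from the member's median, r was -0.68 and 0.55 for Gamt, 0.28 and 0.36 for Gnmt, and -0.50 and -0.13 for Pemt. The part of scaling in the correlations of these members was not tested. Inmt and Nnmt were at r of 0.12 in low protein rats (exact permutation p = 0.847) and -0.58 in control rats (exact permutation p = 0.233), and Inmt was at 0.01 and -0.10 with the 75th percentile.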

How the data were processed

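Total liver RNA was labelled with Cy3 and hybridised to 1-colour Agilent arrays, per the labels' protocols. Per the file headers, Agilent Feature Extraction 12.0.3.1 made the deposited intensity values, which are linear and not scaled between arrays; the deposited value table equals the raw median intensity at 100% of spots. No spot was saturated, and 453 to 739 spots per array carried outlier marks and were set missing. Each processed signal was put on a log2 scale, and the 75th percentile of its array, taken over the 58717 spots other than controls, was subtracted. Probes of a gene were found by RefSeq accession in a GRCr8 table, which matched 21215 of 45598 probes (46.5%) to 16667 genes. The headers name another build, so no probe coordinates are given.

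The diet comparison was a two-sided moderated test in limma 3.58.1 (R 4.3.3, data.table version 1.17.8), adjusted by Benjamini-Hochberg over 21874 genes and called at 0.05. Correlations used exact two-sided permutation tests in Python 3.11.15 (scipy 1.17.1, numpy 2.4.6, pandas 2.3.3), and figures matplotlib 3.10.9. The fit was tested on simulated data. Precision is limited by the 6 arrays per diet. The labels do not say how rats were housed, so p-values measure the spread between these rats.

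The members and lists were chosen with earlier results of these data known. Genes named are the members, up to 4 called genes per list by adjusted p (2 by p where none was called), and the 5 genes most like Inmt and Nnmt; other list and marker genes were named after their values were seen. One listed gene is not reported here and is not in the list counts. Tried as alternatives were other background corrections and scalings, the raw deposited table, keeping dim or outlier-marked spots, averaging a gene's probes, a trended robust spread, slides as a block or alone, rat numbers as a block, and leaving out each rat. No mean signal was in the files, so normexp (offset 50) used the median signal. The alternatives of the zonal correlations, and the unscaled one of the member pairs, were added after seeing the data.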

Additional observations from a re-analysis of the deposited data

How the results depend on the processing

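The differences of Inmt, Nnmt, Gnmt, Gamt and Pemt moved from their reported values by less than the pooled SD between rats in every setting. The exception was Nnmt with slide 2 alone (-0.0229). Gnmt passed the threshold after quantile normalization (-0.30, adjusted p = 0.0466) and Inmt did not on slide 2 alone (-3.78, adjusted p = 0.262). Leaving out 1 rat at a time gave -4.31 to -3.60 for Inmt, -0.70 to -0.48 for Nnmt, -0.27 to -0.18 for Gnmt, -0.02 to 0.06 for Gamt and -0.11 to -0.04 for Pemt. Of all genes, 1429 were called, 437 at an adjusted p of 0.01, 891 without scaling (679 higher, 212 lower, against 761 and 668), 618 without the filter on dim probes, 164 on slide 1, 12 on slide 2, and 854 to 1310 with 1 rat left out (854 without control rat 3). In the methionine cycle list 2 genes were called, 0 at 0.01, 4 after quantile normalization, 1 without the filter, 0 on either slide and 1 to 3 with 1 rat left out (1 without low protein rat 5 or control rat 2, 3, 5 or 6). Among the other small-molecule methyltransferases reported, 0 were called in every setting. Among protein, RNA and DNA methyltransferases 5 calls became 3 at 0.01, 3 without the filter, 0 on either slide and 4 to 6 with 1 rat left out. Among supply and product genes 4 calls became 1 at 0.01, 2 without scaling, 1 without the filter, 8 with a trended robust spread, 0 on either slide and 1 to 5 with 1 rat left out (1 without control rat 3 or 4, 2 without low protein rat 2, 4 or 5 or control rat 5). Single slides hold fewer rats. Calls were lost with single rats left out for Bhmt2, Gcsh, Hal and Shmt2, and Prmt3 lost its call with normexp (0.29, adjusted p = 0.0856). Mtr, Bhmt2, Shmt2, Gcsh, Impdh2, Hal, Nsun2, Prmt3, Prmt1 and Trmt61a kept their sign in every setting, and the other genes named were not followed across settings. Of member pairs, 0 passed adjustment and 1 after quantile normalization. The 4 portal markers above r of 0.8 with Nnmt in control rats became 1 without scaling; the cause was not tested.

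The labels do not say that a number links a low protein rat to a control rat, so the numbers were not taken as pairs. Same-numbered rats deviated together at r of 0.03 to 0.26, over 0.1 in 5 of 6 numbers. Of the 6 low protein rats, 2 matched their own number best. Whether the numbers pair rats was not tested. With the rat number as a replicate block 1411 genes were called, Inmt stayed at -4.03, and Nnmt, at -0.60, passed the threshold (limma adjusted p = 0.0265, against 0.10 without the block).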
